A study of Mus musculus with 4 samples.

Results

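A long reproducible footprint is here a DNase I footprint of the library labelled replicate 1 that lay on chromosomes 1 to 19, was 20 bp or longer, and overlapped a footprint in each of the other 3 libraries by at least 50% of both intervals. Of the 113105 autosomal footprints of replicate 1, 17872 were 20 bp or longer, and 63.6% of those, 11359 footprints, met the rule. The 4 libraries listed 511905 autosomal footprints together. The members were chosen by measured values, their width and their overlap between libraries, so both are described and support nothing else. The sequence, the place and the genes were not used by the rule.

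The libraries were DNase-seq of natural killer (NK) cells, cytotoxic lymphocytes of innate immunity. All 4 came from primary cells of virgin female B6CASTF1/J mice aged 2 months, an F1 cross of C57BL/6J and CAST, and the labels number them as biological replicates 1 to 4. With a single group there is no contrast between conditions. Each library has its own biosample but all carry 1 donor identifier, and neither the tissue nor the sort is stated, so the spread between libraries may be partly technical.

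DNase I cuts accessible DNA, and a protein bound to an accessible stretch shields the bases it covers. A footprint is such a run of protected bases between cut bases, and a wide one can come from a large DNA-binding surface or from several proteins side by side. CTCF, a protein with many zinc fingers that anchors chromatin loops and insulators, and NRF1, a factor at promoters of housekeeping and mitochondrial genes, are known for clear footprints. SP and KLF proteins bind GC boxes, CREB and ATF proteins bind the cyclic AMP response element, and ZBTB33 (Kaiso) binds a CpG-containing palindrome.

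The following members show what such footprints look like. For each of the 5 motifs with the highest ratio of the share in members to the share in all replicate 1 footprints, they are taken from the 3 members of 30 bp or shorter that held the whole motif and had the highest mean peak signal. Letters are those of the reference mouse genome (mm10, RefSeq GRCm38.p6), not of the CAST allele, printed on the strand of the motif with the motif in capitals and named by the nearest protein-coding gene. The first 2 hold the full CREB/ATF site TGACGTCA:
Ppm1b (chr17:84957636-84957664, plus strand): tagggtgggcaggtcggTGACGTCAggag
C87436 (chr6:86472238-86472261, plus strand): ccgcgaggTGACGTCAccacgctg
The next 3 hold the NRF1 site:
Eif5a (chr11:69921383-69921404, plus strand): ccgcactGCGCAAGCGCatgga
Srd5a1 (chr13:69611796-69611818, plus strand): ctctGCGCACGCGCtacgatcag
Rad23b (chr4:55349874-55349896, minus strand): accggcgtGCGCAGGCGCacttc
These 3 hold the ZBTB33 site CTCGCGAGA:
Bclaf1 (chr10:20312336-20312357, plus strand): CTCGCGAGAccgggcaacgaga
Icmt (chr4:152297208-152297232, plus strand): cgcggcagTCTCGCGAGAcctcgcc
Mapk14 (chr17:28691262-28691283, plus strand): ccctctTCTCGCGAGAtctgcc
These 3 hold the long GC box GGGGCGGGG:
Add3 (chr19:53142556-53142577, plus strand): ggccatGGGGCGGGGccttgaa
Mplkip (chr13:17694926-17694950, minus strand): atcgtccaagGGGGCGGGGccgagt
Dnpep (chr1:75317480-75317503, minus strand): agcagcgGGGGCGGGGcgaggcct
The last 3 hold the CTCF site:
Gm15319 (chr8:20424865-20424887, minus strand): taggggCCACCAGAGGGCgcgag
Rnase12 (chr14:51064950-51064977, minus strand): tccttCCAGCAGATGGCgctcccgaacc
H2-DMb2 (chr17:34135412-34135437, plus strand): cgaccttCCACCAGGGGGCggaggtc

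Footprint bases lay on both sides of the motif in these 14 examples except in Bclaf1, where it began at the first base. In Icmt and Mapk14 the ZBTB33 site matched on both strands, 1 base apart, which makes the run of capitals longer. The CREB/ATF example nearest to C87436 lay 33875 bp from its 5′ end. The NRF1, ZBTB33 and long GC box examples lay within 1 kb of a gene 5′ end, except the one in an intron of Add3, 2123 bp inside the gene. All 3 CTCF examples lay more than 1 kb from any such end. Copies of the 41 bp window were counted on the autosomes, X, Y and the mitochondrial genome. The window of the CTCF example near Gm15319 occurs 3 times there, so its reads could come from more than 1 place. The windows of the other examples occur once.

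Replicates 1 to 4 listed 113105, 124205, 181025 and 93570 autosomal footprints. Replicate 3 had the longest list and replicate 4 the shortest. With replicates 2, 3 and 4 in turn as the reference, the same rule gave 12327, 13042 and 10404 members, which is 11783 ± 1149 (SD, n = 4) over the 4 references. These sets rest on the same overlaps, so an SD over references below is not a spread of independent sets. An exact two-sided sign-flip test over 4 libraries could not go below p = 0.125. Replicate 3 also stood apart at NK promoters. The summed peak signal within 1 kb of the 5′ ends of 24 NK receptor and adaptor genes was 19.7, 22.4, 46.5 and 15.4 in replicates 1 to 4, and that of 18 B cell and plasma cell genes was 9.84, 15.6, 5.997 and 10.6. Of the 19 T cell genes, 9 to 11 had a promoter peak, with sums of 14.3 to 29.5, and Cd3e, Cd3d, Cd4 and Cd8a had none in any library. Of the 22 myeloid genes, 9 had a promoter peak in each library, with sums of 17.4, 22.4, 31.2 and 21.9, and Csf1r and Lyz2 had none in any. The NK receptor sum was thus near the myeloid one in replicates 1 and 2, above it in replicate 3 and below it in replicate 4. The receptor sums therefore do not set the label apart. Missing promoter peaks were not particular to the T cell and myeloid lists. On the NK receptor list, Slamf7, Cd160, Klrg1, Cd226 and several Klra genes had none in any library either. Of its 24 genes, 12, 13, 15 and 10 had a promoter peak in replicates 1 to 4. Sums of the 22 cytotoxic effector genes, at 40.6, 48.8, 98.2 and 40.4, were above the myeloid ones in every library. NK transcription factor genes had 61.3, 74.5, 119 and 87.8, and cytokine receptor and trafficking genes 74.3, 89.3, 143 and 94.6. Housekeeping genes had more, with 126, 160, 210 and 156. The part of other cell types in the results was not tested. Without replicate 3 the rule gave 11698 members, of which 64.1% lay at promoters.

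Wider footprints were found again more often, up to 49 bp. Of replicate 1 footprints of 7 to 9 bp, 2.28% were found in the other 3 libraries, against 37.4% of those of 15 to 19 bp and 71.1% of those of 40 to 49 bp. Of the 368 footprints of 50 bp or longer, 61.4% were found. Members had a median width of 27 bp (quartiles 23 and 33 bp), and the longest had 98 bp. The matching footprints in replicates 2, 3 and 4 had medians of 28, 28 and 24 bp. In 8161 members (71.8%) the match was 20 bp or longer in every library, and both ends were identical to replicate 1 in 7.79%, 6.49% and 4.81% of members. The 4 footprints at a member had a median of 21 bases in common and covered 32 together.

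**Figure D1:**
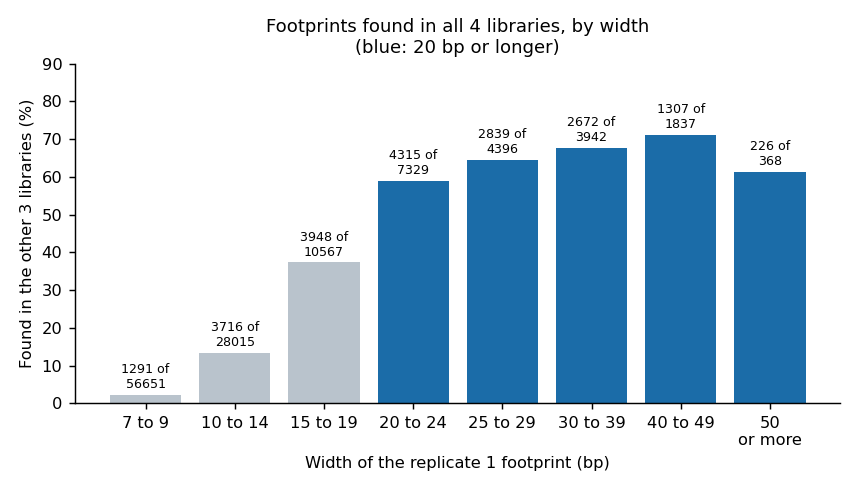
Share of replicate 1 autosomal footprints (y axis, %) that overlap a footprint in each of the other 3 libraries by at least 50% of both intervals, by width (x axis, bp), with counts above the bars. Bars in blue are the members' widths, and the share was 2.28% at 7 to 9 bp and 71.1% at 40 to 49 bp.

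At the length limit, 872 of 1646 footprints of 20 bp and 903 of 1933 footprints of 19 bp were found in the other 3 libraries. Of these, 74.1% and 75.3% lay at promoters and 11.5% and 13.7% held the NRF1 site. At the overlap limit, 1225 long footprints had a lowest overlap of 50% to under 55% and 917 had one of 45% to under 50%. Their promoter shares were 61.5% and 66.5%.

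Members lay mostly at promoters, close upstream of gene starts. A promoter member had any part at most 1 kb from a protein-coding gene's 5′ end (GENCODE vM21), and other members are called distal. Promoters held 7251 members (63.8%), against 49.5% of all replicate 1 footprints, 68.6% of the shorter footprints found in all 4 libraries and 50.4% of the long footprints that were missed in at least 1 library. Over the 4 reference lists the share was 64.4% ± 0.501 (SD, n = 4). Of the 4108 distal members, 1258 lay within 1 kb of some other annotated transcript start and 2850 lay away from every such start. Within 200 bp upstream of a 5′ end lay 4160 members (36.6%), against 18.9% of all footprints. The density peaked in the last 50 bp before the 5′ end, at 34.5 members per bp of distance. It was 17.1 in the first 50 bp after it and 7.46 in the next 50 bp. In that last interval members were 3.28% of their set against 4.22% for all footprints. At the far end, 2398 members (21.1%) lay more than 10 kb from any 5′ end, against 33.3% of all footprints.

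**Figure D2:**
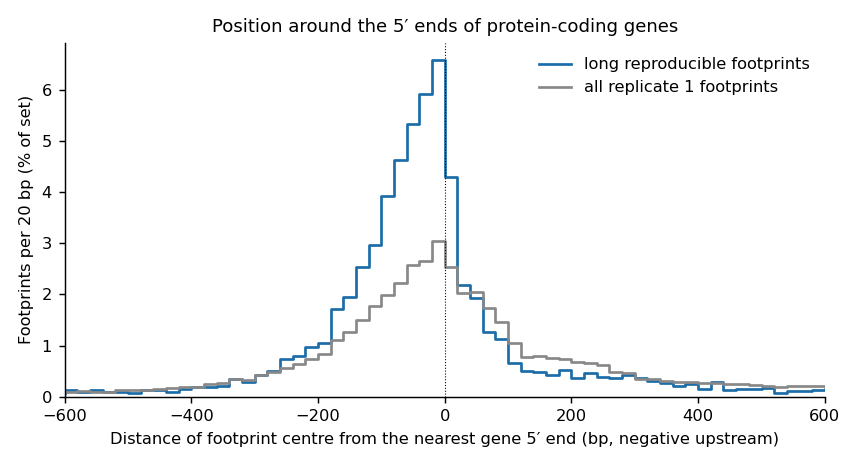
Footprints per 20 bp (y axis, % of each set) by distance of the footprint centre from the nearest protein-coding gene's 5′ end (x axis, bp, negative upstream). Blue, 11359 long reproducible footprints, and grey, 113105 footprints of replicate 1. The blue line is highest just upstream of 0 and lies mostly below the grey one beyond about 50 bp downstream.

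By annotation, 57.4% of promoter members were intergenic, against 42.5% of all promoter footprints. The non-coding part of an exon of a protein-coding gene held 27.6%, against 33.7%, and coding exons held 1.94%, against 6.44%. Distal members were intergenic in 45.9% and intronic in 38.2%, against 41.9% and 42.7% of all distal footprints. In replicate 1, 7738 peaks (17.99%) held a member, and 2154 of those held 2 or more, up to 8. Another member lay within 150 bp of 5422 members (47.7%), and such neighbours were separated by a median of 42.5 bp (quartiles 30 and 62 bp).

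Members lay in strongly cut chromatin. The authors' signal is 1 value per peak with no stated unit, so libraries are given separately. The median peak signal at members, with 0 for a member outside every peak, was 5.25, 6.65, 8.67 and 5.53 in replicates 1 to 4. The median over all replicate 1 footprints was 1.83, 2.03, 2.68 and 1.28, and over long footprints missed in at least 1 library it was 2.56, 2.83, 3.31 and 1.63. Promoter members had 6.58, 8.49, 11.3 and 7.47, and distal members 2.82, 3.11, 3.98 and 1.99. In all 4 libraries promoter members were thus above distal ones. In a peak of every library lay 9815 members (86.4%), and 152 (1.34%) lay in none. The authors' false discovery rate of the cut rate was listed, meaning below 0.05, at the centre base of 100% of members in each library, and of 99.01%, 93.9%, 97.2% and 82.5% of all replicate 1 footprints in replicates 1 to 4. It was below 0.001 at 97.9% to 99.99% of member centres. For all replicate 1 footprints that share was 85.5%, 85.5%, 93.7% and 72.2% in replicates 1 to 4. For the shorter footprints found in all libraries the share was 96.9% to 99.9%. At 500 bp from the centre the false discovery rate was listed for 28.2% to 49.8% of members and 21.4% to 40.98% of all footprints. Signal, FDR and footprints come from the same reads, so these values describe the members only.

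Within the footprint itself, members held more G, C and CpG than all footprints, and less than the shorter footprints found in all libraries. The GC content of member sequence was 68.6%, against 65.0% in all replicate 1 footprints, 71.0% in shorter footprints found in all libraries and 65.5% in long footprints missed in at least 1. Its SD over the 4 reference lists was 0.373 percentage points. In windows of 41 bp centred on the footprint, which are equally long in every set, GC was 66.3% for members, 60.7% for all footprints and 64.4% for the shorter footprints found in all libraries. Windows of that length centred 100 bp to either side of members had 59.7% and 59.9%. The ratio of observed to expected CpG was 0.794 in members, 0.724 in all footprints and 0.883 in shorter footprints found in all libraries, with 0.897 in promoter members and 0.579 in distal members. A GC content of at least 80% was reached by 2032 members (17.9%) and one of at most 40% by 119. The window occurred once on the autosomes, X, Y and the mitochondrial genome for 11248 members, more than once for 111 and more than 10 times for 28.

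Motif content was compared in the 41 bp windows, on both strands, for 34 consensus sequences. At least 1 of them was present at 7437 members (65.5%). The same share over all replicate 1 footprints was not computed, so this count does not set members apart. Short sites are common there too, with GGGCGG in 14.1% of all footprints. For 12 of the 34 sequences the share in members was over 1.5 times that in all replicate 1 footprints, and for 11 it was under 0.67 times. The 8-letter words pointed to the same sites without the list. Of 273 words present in at least 1% of members, the highest ratio to all footprints was that of the CREB/ATF site TGACGTCA, at 4.52, followed by CGCATGCG, a part of NRF1-type sites, at 4.51. The commonest of all were GC boxes, with CCCCGCCC in 16.8% of members and 5.22% of all footprints.

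CTCF was the leading motif of distal members. Its consensus, searched with all 12 letters matching, was present at 1050 members (9.24% ± 0.402, SD over 4 reference lists), against 2.83% of all footprints, 1.45% of shorter footprints found in all libraries and 9.83% of long footprints missed in at least 1. In windows 100 bp to the left and right of members it was present at 0.0880% and 0.0968%. Distal members held it in 23.3%, against 5.27% of all distal footprints, and promoter members in 1.28%. CTCF holders lay a median of 13645 bp from the nearest 5′ end, and their median peak signal was 2.17, 2.32, 2.88 and 1.40 in replicates 1 to 4, below that of distal members as a whole. The CTCF site was thus about as frequent in long footprints missed by a library as in members.

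The CTCF footprints differed in how far they reached on the 5′ side. The whole match lay inside the footprint in 98.5% of the 1050. The footprint most often reached 5 bases beyond the 5′ side of the match (263 members) and 10 beyond the 3′ side (132 members). In 889 members it reached fewer than 15 bases on the 5′ side, with a median width of 27 bp, and in 161 (15.3%) it reached 15 or more, with a median of 21 bases there and a width of 42 bp. The bases on the 3′ side had medians of 10 and 9. The bound of 15 bases was set after the distribution was seen, and it fixes that the second group is longer on the 5′ side. The 3 members with at least 20 bases on the 5′ side that had the highest mean signal, occurred once and lay outside exons are examples of the longer reach:
Chd2 (chr7:73618504-73618547, minus strand): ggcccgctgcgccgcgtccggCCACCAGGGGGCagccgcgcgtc
Faf2 (chr13:54621664-54621707, minus strand): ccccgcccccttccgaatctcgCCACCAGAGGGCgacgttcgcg
Dennd6b (chr15:89196617-89196661, plus strand): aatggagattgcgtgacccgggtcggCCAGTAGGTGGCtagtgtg

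**Figure D3:**
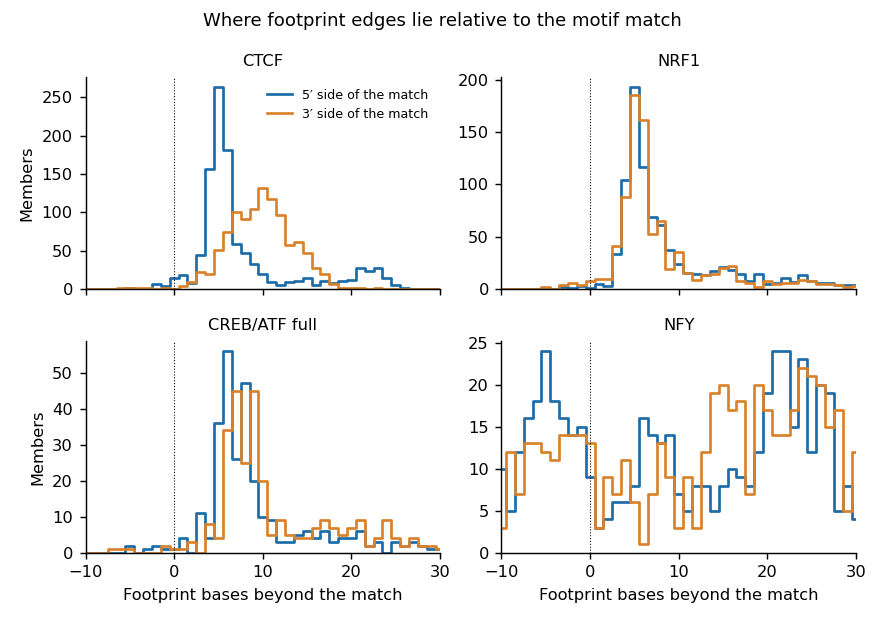
Number of members (y axis) by how many footprint bases lie beyond the motif match (x axis, bases), for CTCF, NRF1, the full CREB/ATF site and NFY. Blue is the 5′ side and orange the 3′ side of the match. Values are negative where the footprint does not reach that end of the match. CTCF shows a peak at 5 bases and a smaller rise around 21 bases on the 5′ side, NRF1 peaks at 5 bases on both sides, and NFY shows no single peak.

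Most NRF1 sites in members lay at promoters, which held 87.0% of them. This is not particular to members, since 2.92% of all promoter footprints and 0.561% of all distal footprints held the site. The sites were present at 876 members (7.71% ± 1.14), against 1.73% of all footprints, 5.49% of shorter footprints found in all libraries and 1.07% of long footprints missed in at least 1. Promoter members held them in 10.5%, against 2.92% of all promoter footprints, and distal members in 2.78%, against 0.561% of all distal footprints. The side windows held them in 1.13% and 1.39%. With replicates 1 to 4 as reference the share was 7.71%, 7.84%, 8.76% and 10.2%, highest for the library with the fewest footprints. The footprint reached most often 5 bases beyond the match on both sides, and the median width of holders was 24 bp. Their median peak signal was 5.99, 7.85, 10.5 and 8.42.

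GC boxes were the most widespread motif. The 6-letter core GGGCGG was present at 3503 members (30.8% ± 0.938), against 14.1% of all footprints and 13.7% and 13.05% of the side windows. The long form GGGGCGGGG was present at 1220 (10.7% ± 0.152), against 3.07% of all footprints. It overlaps the core form, so the counts are not separate. The CACCC box CCACNCCC, another KLF site, was present at 796 members (7.01%), against 3.46% of all footprints and 3.10% and 3.04% of the side windows. Inside the footprint, at least 1 core was found in 29.9% of members of 20 to 24 bp, 22.6% of 25 to 29 bp, 28.8% of 30 to 39 bp and 36.1% of 40 bp or longer. At least 2 were found in 0.742% and 13.4% of the narrowest and widest class, where the wider footprints also give more bases to search.

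Sites with a central CpG followed the same pattern. The full CREB/ATF site was present at 298 members (2.62% ± 0.0827), against 0.58% of all footprints and 0.352% and 0.308% of the side windows. Both promoter members (3.19%) and distal members (1.63%) held it about 4 times as often as the footprints of their class, at 0.796% and 0.369%. The ZBTB33 site was present at 70 members (0.616% ± 0.115), against 0.172% of all footprints.

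CCAAT boxes in the windows often lay partly or wholly outside the footprint. NFY, the CCAAT-binding trimer, had its site (ACCAAT or GCCAAT) at 522 members (4.60% ± 0.248), against 3.77% of all footprints and 3.94% and 4.13% of the side windows, so the share was much like that of the flanks. Only 49.6% of these matches lay wholly inside the footprint, against 97.4% for NRF1. Some rarer sites differed less. The ETS site of promoters, CCGGAAGT, was present at 1.80% of members against 1.14% of all footprints, the RFX site GTTGCCA at 1.06% against 0.648%, and the YY1 site AANATGGCG at 0.511% against 0.643%. The E-box CAGGTG, which ZEB proteins bind, was present at 8.01% of distal members and 4.49% of all distal footprints. It was present at 1.82% of promoter members and 2.06% of all promoter footprints. The CTCF consensus allows matches that contain CAGGTG, so both sites can share letters. E-box shares without CTCF matches were not computed.

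The RUNX, T-box, lymphoid ETS and IRF sites were scarcer in members than in all footprints when equal windows were searched, and this order turned when only the footprint itself was searched. The order in equal windows does not extend to all sites searched, since the CACCC box had a higher share in members. The CAGGTG E-box did too (4.06% against 3.29%), but its letters can lie within a CTCF match. RUNX sites (TGTGGTT) were present at 52 members (0.458% ± 0.0515) against 1.19% of all footprints. T-box sites (GGTGTGA), the sites of T-bet and Eomes, were present at 29 members (0.255%) against 0.677%. The lymphoid ETS site AGGAAGT was present at 95 members (0.836%) against 1.83%, and the IRF site at 12 members (0.106%) against 0.429%. The order was the same among distal footprints alone, where RUNX sites were present at 0.779% of members and 1.96% of all and T-box sites at 0.438% and 0.973%. In windows of 100 bp to either side, RUNX sites stood at 0.519% and 0.467%, T-box sites at 0.335% and 0.440%, the lymphoid ETS site at 0.924% and 0.872%, and the IRF site at 0.335% and 0.264%. Inside the footprint alone, RUNX sites were found in 0.247% of members and 0.143% of all footprints, T-box sites in 0.141% and 0.0902%, the lymphoid ETS site in 0.291% and 0.252%, and the IRF site in 0.0880% and 0.0362%. Members are wider than other footprints, so this search covered more bases in them. The 52 RUNX and 29 T-box members are few, and their median peak signals were between those of distal and promoter members.

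**Figure D4:**
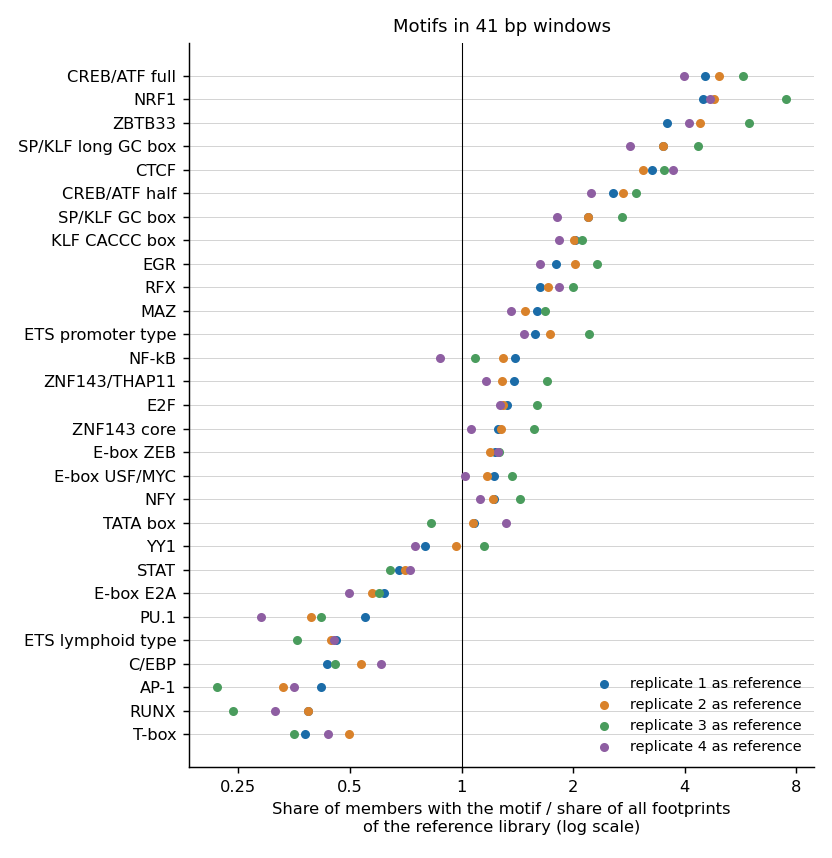
Share of members with each motif divided by the share of all footprints of the same reference library (x axis, log scale), for the motifs present at 20 or more members (y axis), in 41 bp windows. Points are the 4 libraries taken in turn as reference, and the line marks equal shares. The CREB/ATF, NRF1, ZBTB33, long GC box and CTCF points all lie above 2, and the RUNX and T-box points all lie below 0.5, which does not hold when only the footprint is searched.

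Transfer RNA genes held members over their second part. They are transcribed by RNA polymerase III, whose factor TFIIIC binds the internal B box. Members overlapped 69 of 386 autosomal tRNA genes, with 82 members (0.722%), against 0.279% of all footprints and 0.268% of shorter ones found in all libraries. They began at a median of base 41 of the gene and ended at base 69, and 52 of the 82 held the B box letters GGTTCGA, which 56 of all 11359 members held. In 14 of the 82 the window occurred more than once on the autosomes, X, Y and the mitochondrial genome. The 3 with the highest mean signal among those with the letters and a single-copy window are printed on the strand of the tRNA gene with the letters in capitals:
n-TStga3 (chr10:63429474-63429513, minus strand): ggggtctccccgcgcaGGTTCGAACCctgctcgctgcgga
n-TLaag4 (chr7:120917563-120917604, plus strand): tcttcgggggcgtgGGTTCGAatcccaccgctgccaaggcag
n-TSgct7 (chr2:119046754-119046787, minus strand): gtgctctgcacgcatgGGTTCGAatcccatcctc
In n-TStga3 the match on the other strand overlaps the first one, which makes the run of capitals longer. The peak signal at that member was 19.5, 25.4, 28.5 and 26.0 in replicates 1 to 4.

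Genes with a member in the promoter were 5036 of 20807 autosomal protein-coding genes, or 24.2% ± 1.44 (SD over 4 reference lists), and 10413 genes had any replicate 1 footprint there. At least 2 members were found at 2285 genes and at least 5 at 82. Jkamp, which encodes a membrane protein associated with JNK signalling, and L3hypdh, a hydroxyproline dehydratase, share a divergent promoter on chromosome 12 and had the most, 9 each. The same promoter had 9, 9 and 7 members with replicates 2, 3 and 4 as reference. Its peak signal was 13.4, 15.99, 22.7 and 19.4, although the first member lay outside every listed peak and the second and the last lay outside those of replicate 4. The 9 members, in order along the plus strand and with motif letters in capitals, show a GC box in 8 and a CACCC box on the minus strand in the first:
Jkamp (chr12:72085416-72085437, plus strand): ccaaatggGGGCGTGGctccag
Jkamp (chr12:72085451-72085470, plus strand): cggaggGGGCGGggcttcgg
Jkamp (chr12:72085482-72085504, plus strand): gcagcgGGGCGGggctcggaggc
Jkamp (chr12:72085512-72085534, plus strand): ctcggcggGGGCGGggcctcgga
Jkamp (chr12:72085579-72085598, plus strand): aaatagGGGCGGggctccag
Jkamp (chr12:72085637-72085660, plus strand): gcacgatggGGGCGGtcctcggag
Jkamp (chr12:72085703-72085726, plus strand): cacggggtGGGCGGagctacgagc
Jkamp (chr12:72085735-72085756, plus strand): ggaaacggGGGCGGgacctcag
Jkamp (chr12:72085803-72085822, plus strand): ggaggcaGGGCGGggacgag

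The other genes with the most members, ties taken by symbol, were Ddx54, an RNA helicase, and Rita1, a regulator of Notch signalling, which share 8 members between them, then Acsl1, a fatty acyl-CoA synthetase, Ccdc9, Cic, a transcriptional repressor, and Sec11c, a signal peptidase subunit, with 7 each, and B4galt1, a galactosyltransferase, and Banf1, a DNA-bridging protein of the nuclear envelope, with 6 each. Mean peak signals at these 8 genes ranged from 11.1 ± 3.46 at Banf1 to 20.5 ± 5.15 at Ddx54 and Rita1 (SD, n = 4), and replicate 3 had the highest value at each.

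Several families of basic cell functions had members at a larger share of genes than the 24.2% of all protein-coding genes. Of 18 housekeeping genes on the list used here, 12 had a promoter member, among them Actb with 4, Rplp0 with 3, and B2m and Polr2a with 2 each. By family, members were found at 44 of 64 splicing factor and hnRNP genes (68.8%), 52 of 81 cytosolic ribosomal protein genes (64.2%), 29 of 52 translation initiation factor genes (55.8%), 23 of 44 NADH dehydrogenase subunit genes (52.3%), 39 of 78 mitochondrial ribosomal protein genes (50%) and 24 of 49 proteasome subunit genes (48.98%). Among genes with any promoter footprint the differences were smaller. A member was found at 48.4% of all such genes, at 77.2% of those of the splicing family, 70.3% of cytosolic ribosomal, 61.7% of initiation factor, 57.1% of proteasome, 54.8% of NADH dehydrogenase, 52.0% of mitochondrial ribosomal and 42.2% of histone genes. Zinc finger genes of the Zfp series had them at 100 of 385 (26.0%), although 280 had some footprint. None of 1128 olfactory receptor genes and 0 of 67 protocadherin genes had one, but only 1 and 4 of them had any promoter footprint.

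**Figure D5:**
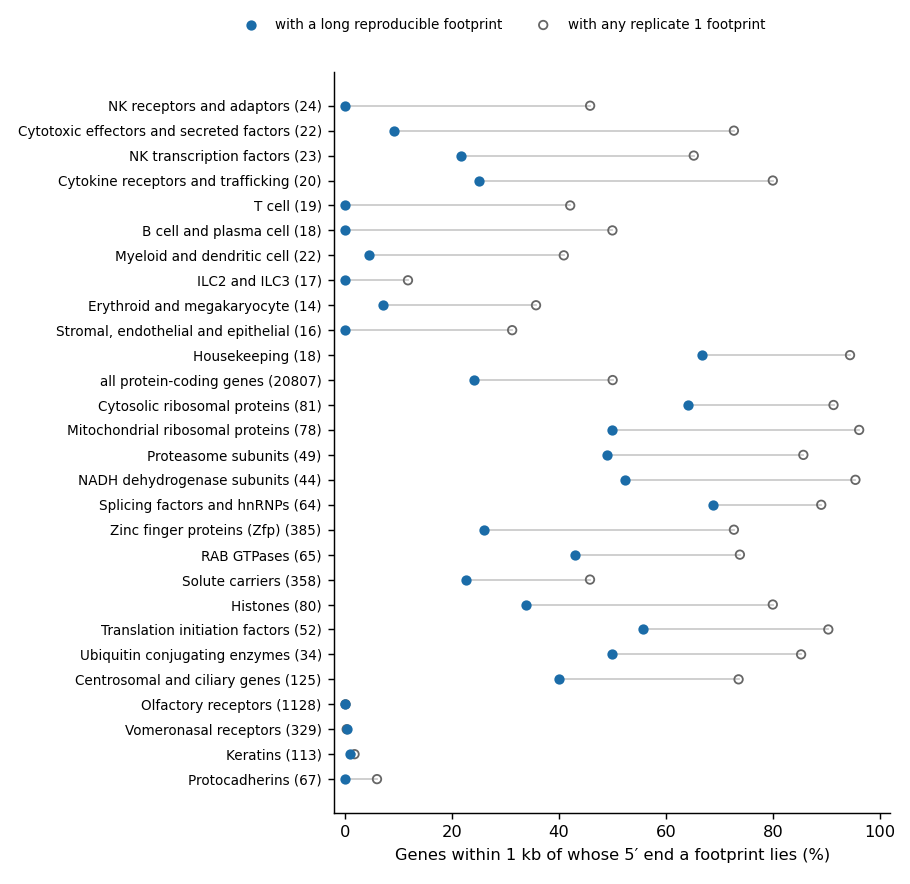
Share of genes (x axis, %) with a long reproducible footprint (filled) or any replicate 1 footprint (open) within 1 kb of the 5′ end, for gene lists and families (y axis, number of autosomal genes in brackets). Housekeeping genes stand at 66.7% and NK receptors at 0% for the filled points, and at 94.4% and 45.8% for the open ones.

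Members at promoters of NK genes differed between the 4 NK lists. They were found at 0% of receptor and adaptor genes, 9.09% of cytotoxic effectors, 21.7% of transcription factors and 25% of cytokine receptor and trafficking genes, against 24.2% of all protein-coding genes. Among genes with any promoter footprint, members were found at 0 of 11, 2 of 16, 5 of 15 and 5 of 16 in the same order. All 4 lists were then below the 48.4% of all such genes. None of the 24 autosomal NK receptor and adaptor genes had one, also with each other library as reference, although 11 had some replicate 1 footprint there, among them Ncr1, the activating receptor NKp46, with 2 footprints. Of 22 cytotoxic effectors, Lamp1, a lysosomal membrane protein exposed on degranulation, had 3 members and Rab27a, which docks cytotoxic granules, had 2. Prf1 and Gzmb, the genes of perforin and granzyme B, had 7 footprints each and no member, and Nkg7 had 12 and no member. Of 23 NK transcription factors, Klf2, which controls lymphocyte trafficking, had 4 and Bhlhe40, Cbfb, Irf2 and Runx1 had 1 each. Eomes had 2 footprints and no member. Of 20 cytokine receptor and trafficking genes, Tgfbr1 had 3, Cxcr4, Ifnar1 and Jak1 had 2 each, and Ifngr1 had 1. T cell, B cell, ILC2 and ILC3, and stromal lists had 0 of 19, 18, 17 and 16. Irf8 had 1 among 22 myeloid genes and Tfrc had 2 among 14 erythroid genes. NK receptor genes and T cell genes thus both had none. Ncr1, Prf1, Gzmb, Nkg7 and Eomes are named as well-known NK genes after their values were seen.

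Some members at these NK list genes hold GC, CACCC or E-box letters, and others, such as both of Rab27a and those of Bhlhe40 and Irf2, hold none of them. Members of 5 genes, picked after their sequences were seen because they hold these letters, are shown on the strand of the gene with capitals for the motifs on either strand:
Klf2 (chr8:72318824-72318880, plus strand): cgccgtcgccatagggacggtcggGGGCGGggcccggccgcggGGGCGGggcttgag
Cxcr4 (chr1:128592382-128592403, minus strand): ccctgcgccCCGCCCccgccag
Lamp1 (chr8:13159096-13159129, plus strand): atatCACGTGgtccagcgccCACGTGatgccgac
Tgfbr1 (chr4:47352998-47353020, plus strand): cggtgaggGGGCGTGGtcagagg
Tgfbr1 (chr4:47353025-47353045, plus strand): gcagtgcggGGGCGTGGttag
Ifngr1 (chr10:19591896-19591936, plus strand): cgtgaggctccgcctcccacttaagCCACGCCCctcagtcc

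The Klf2 member held 2 GC boxes, 181 bp upstream of the gene's 5′ end, and had a peak signal of 11.0, 15.6, 19.7 and 22.2 in replicates 1 to 4. The Lamp1 member held the E-box CACGTG 2 times and had a signal of 4.18, 6.52, 8.10 and 7.94. At Ifngr1, the gene of an interferon gamma receptor chain, the signal was 14.4, 17.3, 27.3 and 20.7. The 2 Tgfbr1 members shown, 4 bases apart, lay in a peak with signals of 10.7, 13.9 and 11.1 in replicates 2 to 4, and outside every listed peak of replicate 1. At Runx1 the signal was 4.95, 4.803, 11.2 and 5.12, so the value of replicate 3 was over 2 times each other one.

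Away from promoters, NK loci did hold members. On the 4 NK lists, 43 genes had a distal member in the gene body or within 25 kb of it, with 86 different members in all. These were 7 of 24 receptor and adaptor genes, 7 of 22 cytotoxic effectors, 17 of 23 transcription factors and 12 of 20 cytokine receptor and trafficking genes. Over all protein-coding genes the share was 23.6%. Other lists had 12 of 22 myeloid, 10 of 18 housekeeping, 8 of 18 B cell and 6 of 19 T cell genes, so such members were not particular to NK loci. A CTCF site was present at 13 of the 86 (15.1%), against 23.3% of all distal members, a GC box at 20 (23.3%), against 14.1%, and the full CREB/ATF site at 4 (4.65%), against 1.63%. RUNX and T-box sites were present at 0 of the 86, and at 0.779% and 0.438% of all distal members, so these 86 are too few to tell the shares apart. Over all protein-coding genes there were 0.385 distal members per gene. There were 1.38 per NK receptor gene, with 33 over 7 genes, and 1.22 per NK transcription factor gene, with 28 over 17 genes. In these per-gene counts a member shared by several loci is counted at each. The cytokine receptor list had 1.0, the housekeeping list 0.944, the myeloid list 0.727, the B cell list 0.556, the cytotoxic list 0.545 and the T cell list 0.474. Loci differ in length and overlap, which was not adjusted for.

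The NK receptor count came largely from 1 locus. The locus of Klrb1c, a lectin-like NK receptor gene, had 13 and its neighbour Klrb1b had 9, of which 6 are shared, on chromosome 6. Both intronic members at chr6:128803032-128803062 and chr6:128803111-128803158, lay upstream of the Klrb1c 5′ end and shared a peak with a signal of 9.19, 10.6, 15.2 and 10.1. An intronic member at chr6:128799563-128799590 and an intergenic one at chr6:128764239-128764292 held the full CREB/ATF site. The Fcgr3 locus, which encodes an Fc receptor of NK and myeloid cells, had 5. At the member at chr1:171037996-171038029, whose nearest 5′ end is that of Fcgr4, the signals were 4.76, 5.48, 8.22 and 4.06. Stat4, which transmits interleukin 12 signals, had 5 in its locus, and the intronic one at chr1:52034958-52034988 held the full CREB/ATF site and had a signal of 4.04, 4.45, 10.1 and 3.75.

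Cx3cr1, a chemokine receptor gene, had 4 and the other NK loci had 1 to 3 each. Fasl, the gene of the Fas ligand, had 2, at 21565 and 21619 bp downstream of the 5′ end, in a peak with a signal of 3.68, 4.26, 10.4 and 7.16, where replicate 3 was the highest. Ikzf3 had 3, nearest to the Grb7 5′ end, in a peak with a signal of 8.20, 9.69, 11.3 and 8.01. Ets1 had 1 in an intron with a GC box and a signal of 6.79, 10.1, 11.6 and 10.2. Single members lay in the loci of Tbx21, the gene of T-bet, of Id2, Nfil3, Runx3 and Tcf7, Gata3 had 2, and the Tbx21 and Tcf7 ones held a CTCF site.

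The longest members were of different kinds. The longest of all, 98 bp in every library, lay 592 bp from Gm10718 on chromosome 9, and its 41 bp window occurs 38 times. The next, 80 bp or 81 bp in each library, lay 55404 bp from Pdia4, with 12 copies. The other 8 of the 10 longest had single-copy windows. Of these, Dcaf7 had 78, 77, 77 and 42 bp in replicates 1 to 4, Tmem184c had 76, 77, 65 and 63, Zmynd8 had 73, 73, 72 and 73, Cdadc1 had 71, 62, 60 and 38, and Mrpl32, a mitochondrial ribosomal protein gene, had 69, 54, 41 and 49. Zfat, Gys1 and Erlin2 completed the list. Widths were thus alike at Zmynd8 and spread widely at Cdadc1. Of those outside exons, 3 are shown on the strand of the gene because each holds more than 1 motif:
Dcaf7 (chr11:106036660-106036737, plus strand): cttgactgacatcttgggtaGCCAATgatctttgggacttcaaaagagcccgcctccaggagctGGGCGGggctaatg
Tmem184c (chr8:77610792-77610867, minus strand): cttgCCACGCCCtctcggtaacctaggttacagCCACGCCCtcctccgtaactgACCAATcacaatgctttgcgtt
Cdadc1 (chr14:59597942-59598012, minus strand): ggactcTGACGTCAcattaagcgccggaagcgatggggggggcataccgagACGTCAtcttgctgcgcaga
Dcaf7 holds a CCAAT box and a GC box, Tmem184c 2 CACCC boxes and a CCAAT box, and Cdadc1 a full CREB/ATF site and a second TGACGT letter run on the other strand. The Dcaf7 member lay outside every listed peak of replicates 3 and 4.

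The 5 distal members with the highest mean peak signal lay at 3 places, each with a window found more than once. The strongest, 109619 bp from Gm8797 on chromosome 3, had signals of 49.6, 50.2, 46.6 and 43.1, and its window occurs 6 times. The next, in an intron of Txndc11, had 35.0, 40.96, 37.5 and 45.2, with 3 copies. Reads from other copies could add to both. The other 3 were neighbours in 1 peak upstream of Igf2bp3, with 33.0, 34.1, 40.9 and 37.7 and widths of 41 to 46 bp, and the window of the middle one occurs 2 times.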

How the data were processed

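DNase-seq footprints, peaks and cut rates of 4 NK cell libraries were used, on mm10 and made per library, per the deposited readmes. No label or readme used here names the caller, the aligner or their parameters (not given in the sources used here). Each deposited footprint score is the constant 0.01, so only intervals were used. The deposited FDR (a q-value of the cut rate) is listed below 0.05, and the deposited peak signal has no stated scale between libraries. Of the 2 peak lists per library the longer was used, and a member outside a peak counted as signal 0. Sequencing depth is not given, so footprint numbers stand in its place.

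Overlaps were computed with bedtools 2.31.1, pandas 2.3.3 and numpy 2.4.6 in Python 3.11.15, and figures with matplotlib 3.10.9. Genes came from GENCODE vM21 and sequence from RefSeq GRCm38.p6. Motifs were exact consensus matches on both strands in 41 bp windows. The overlap rule and motif search were tested on simulated data. Members, motifs and gene lists were chosen with earlier results of these data known. Named genes were the 10 with the most promoter members, list genes with a promoter member (up to 4 per list), NK genes with a distal member within 25 kb, and those nearest to the 10 longest members, the 5 distal members of highest signal and 3 members for each of 6 motifs. Exceptions are stated where they occur. A few items that the rule names are not reported here. With 1 group there was no test. Alternatives changed length, overlap, libraries, promoter definition and window, and those on copies and runs were chosen after seeing the data.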

Additional observations from a re-analysis of the deposited data

Results flagged for a closer look

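In 97 sets of 4 library values, the highest or lowest value was compared with its nearest neighbour relative to the range by Dixon's 95% critical value for 4 samples. In 6 sets it stood further apart, and chance alone puts about 1 in 20 sets past this bound. Replicate 3 had the low value of the median peak signal over all autosomal peaks, 0.930 against 1.08, 1.087 and 1.08 in replicates 1, 2 and 4. With replicate 3 as reference, the share of members with the promoter ETS site was 2.01%, against 1.80%, 1.82% and 1.81%. Replicate 3 also had the high promoter peak signal at Runx1, 11.2 against 4.803 to 5.12, at Bhlhe40, 7.13 against 3.91 to 4.39, and at Rplp0, 23.7 against 17.6 to 18.2. At Irf8 replicate 1 was low, with 4.76 against 7.34 to 7.83.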

How the results depend on the processing

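The number of members was 7044 with a minimum of 25 bp and 4591 with 80% overlap, 8163 with 1 member per run, and 9815 to 15808 under the other settings. Leaving out 1 library gave 11698 to 14989. The promoter share was 65.1% from 18 bp, 59.0% from 25 bp, 65.8% with 80% overlap, 62.3% with any overlap, 59.7% when found in at least 2 of the other 3 libraries, 64.5% and 65.1% with replicates 2 and 4 as reference, and 61.4% for members in a peak of every library. Leaving out 1 library gave 59.3% to 64.6%, lowest without replicate 4. It was 59.8% with promoters of 500 bp, 67.01% with 2 kb and 71.5% with any transcript start of a protein-coding gene, where all footprints had 43.8%, 53.8% and 58.3%. With 1 member per run of gaps up to 150 bp, a setting chosen after seeing the data, it was 57.1% and GC was 68.0%. GC was 66.3% in 41 bp windows. With 1 mismatch the CTCF share was 20.9%, against 7.66% of all footprints. In the footprint alone, 30 motifs had a ratio above 1.5, against 12 in equal windows, and 10 motifs past a bound changed side. Under the other settings only PU.1, among promoter members, did so. Members are wider than other footprints, so the search of the footprint alone covered more bases in them. The part of width in the change was not tested. No paired analysis was possible because all 4 libraries form 1 group. The depth of the libraries is unknown, so a footprint missing from a library may be undetected there.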
